A study of Homo sapiens with 10 samples.

Results

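Heat shock proteins and chaperonins are described here in SH-SY5Y cells, a human neuroblastoma line, after an siRNA against the primate long non-coding RNA LncND or a mimic of the microRNA miR-143-3p. The members were taken by gene name from both tables of expression values, as all HSPA, HSPB, HSPD, HSPE, HSPH, DNAJA, DNAJB, DNAJC and CCT genes together with TCP1, HSF1, HSF2 and BAG3, leaving out 6 genes of the endoplasmic reticulum lumen and antisense names. This gave 81 of the 23609 gene names, namely 13 HSPA, 8 HSPB, 42 DNAJ and 12 chaperonin genes, HSPD1 and HSPE1, HSPH1, and the 3 regulators HSF1, HSF2 and BAG3. Not all of them are cytosolic: HSPA9, HSPD1, HSPE1, DNAJA3, DNAJC11, DNAJC15, DNAJC19 and DNAJC30 encode mitochondrial proteins, DNAJB12, DNAJB14 and DNAJC1 encode membrane proteins of the endoplasmic reticulum, and HSPB11 encodes a protein of intraflagellar transport. CCT6P1, CCT6P3, HSPA7 and DNAJA1P5 are pseudogenes. The genes HSP90AA1 and HSP90AB1, whose names the pattern does not take, are given with the related genes.

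The cells grew in DMEM/F12 medium with serum and were harvested 72 h after transfection. LncND siRNA was given at 100 nM (3 libraries) and set against a scrambled siRNA (3 libraries), and the miR-143-3p mimic at 50 nM (2 libraries) against a scrambled miRNA (2 libraries), with no dose stated for the scrambled controls. Poly(A) RNA from a MirVana extraction was made into stranded libraries. Whether the numbered replicates come from independent cultures is not stated in the labels, and the p-values cover only the variation among these libraries, part of which may be technical. All groups are cultures of 1 cell line, LncND had no row of its own, and its level was not analysed here.

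Chaperones of the HSP70 family bind unfolded stretches of proteins in a cycle driven by ATP. J-domain proteins (the DNAJ genes) bring clients to HSP70 and start ATP hydrolysis, and nucleotide exchange factors such as HSPH1 and BAG3 release the client. Small heat shock proteins hold unfolded proteins without ATP, and closed chambers, HSP60 with HSP10 in mitochondria and the CCT ring in the cytosol, fold proteins inside a cavity, tubulin and actin being the best known CCT clients. HSF1 is the main transcription factor that switches on these genes when unfolded proteins build up, through heat shock elements made of repeated GAA and TTC blocks.

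The sequence that defines the mimic is the mature miR-143-3p (RefSeq, GRCh38.p14, chr5:149428978-149428998, plus strand), shown with its seed, bases 2 to 8, in capitals.
miR-143-3p: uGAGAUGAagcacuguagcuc
The letters that pair with the seed are TCATCTC in DNA, TCATCTCA with an A after them, and CATCTCA for the match that lacks the first T and ends in that A. In the longest annotated 3′ UTR of each gene (GENCODE release 29), 11 of 61 tested members (18.0%) held at least 1 of these on the transcript's strand, against 24.8% of 11198 tested genes. The only one with the longest form was BAG3, at bases 407 to 414 of 537. HSPA4L, which stood at 0.461 of its control mean with the mimic, held 3 matches of the form CATCTCA. The first of these is printed with that of HSPH1 and 1 of the sites of CCT5. Capitals mark the match.
BAG3: gatgattttctTCATCTCAtaattaaaata
HSPA4L: acaaattagtcCATCTCAttgatgtacca
HSPH1: aggtgcttcaaCATCTCAgaattggctta
CCT5: cgtgggggtacCATCTCAactgcttttgt
The other tested members with a match were HSF2, HSPA12A, DNAJC11 and DNAJC18 (TCATCTC) and DNAJB1, DNAJC14 and DNAJC22 (CATCTCA). DNAJC18 held CATCTCA as well, and the untested DNAJA4 and HSPB7 also held a match. A match is a run of letters and not a measured binding site.

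For the heat shock element, the letters GAANNTTC and TTCNNGAA, each its own reverse complement and so read on both strands at once, were searched in RefSeq promoter windows (GRCh38.p14) from 250 bases before to 50 bases after each gene's start. The 2 forms can overlap in longer elements. Either form stood in 17 of 64 matched members (26.6%) and in 13.7% of 27167 promoters. The 17 include members with values too low to be tested, such as HSPA6, and HSPA1A and HSPA1L are both counted for the same match. The stretches around 1 match are printed for 5 members whose values are given below, with the match in capitals. Those of HSPA1A and HSPA1B show how alike the promoters of these copies are.
HSPA1A (chr6:31815426-31815455, plus strand): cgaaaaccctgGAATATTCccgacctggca
HSPA1B (chr6:31827622-31827651, plus strand): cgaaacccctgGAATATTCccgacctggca
HSPB1 (chr7:76302480-76302509, plus strand): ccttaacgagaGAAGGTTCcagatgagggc
HSPB8 (chr12:119178832-119178861, plus strand): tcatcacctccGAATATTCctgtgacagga
HSPA8 (chr11:123062343-123062372, minus strand): gagcttgaaagTTCCAGAAcgctgcggtga

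The values are FPKM, a count of fragments divided by transcript length and by library size, in 1 table per kind of treatment. Depth, estimated from the steps between low values, was about 13.9 to 44.2 M fragments per library. LncND siRNA replicate 1 stood apart, with a summed FPKM of 1678230 against 428238 to 447672 in the other siRNA libraries and correlations of 0.988 and 0.989 with its 2 replicates, whose own correlation was 0.996. The excess was not in the members, whose summed FPKM was 4198 in that library. It was 4050 to 4201 with scrambled siRNA and 3893 and 3770 in LncND siRNA replicates 2 and 3. Of 8 markers of noradrenergic neuroblastoma 7 reached 1 FPKM, the exception being TH (highest library 0.438 FPKM). Of these 7, with LncND siRNA 3 rose and 3 fell (42.9% each, against 36.6% and 30.3% of all genes). With the mimic 4 rose (57.1% against 24.6%) and 3 fell (42.9% against 38.6%). Their differences of log2(FPKM + 1) ran from -0.86 to 0.49 with LncND siRNA and from -0.87 to 1.85 with the mimic. None of 7 endothelial and blood markers reached 1 FPKM, and of 7 glial markers only S100B did. S100B moved with both treatments, from 3.06 ± 0.0425 to 5.92 ± 0.126 FPKM with LncND siRNA (called higher) and from 3.92 ± 0.568 to 2.84 ± 0.157 with the mimic (called lower). The summed FPKM of the glial list was 3.49 to 3.65 with scrambled siRNA, 6.31 to 6.67 with LncND siRNA, 4.23 to 5.03 with scrambled miRNA and 3.39 to 3.40 with the mimic. The summed FPKM of 7 epithelial markers was 3.58 to 3.83 with scrambled siRNA and 12.6 to 12.9 with LncND siRNA, of which MUC1 and CLDN4 rose while KRT5 and KRT14 stayed near the lowest listed value. The part of any of these lists in the results was not tested. In bulk RNA, fewer cells of a kind and less RNA per cell cannot be told apart.

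Below, a level is FPKM, given per library or as a mean ± SD (n = 3 per siRNA group, n = 2 per miRNA group), and an effect is a difference of log2(FPKM + 1), treated minus scrambled, ± SE. Each table was tested as a whole with limma, over the genes whose mean reached 1 FPKM, and a gene was called where the Benjamini-Hochberg adjusted p was under 0.05. Of the 81 members, 62 were tested with LncND siRNA and 63 with the mimic, the additional one being HSPA1L. The 18 tested in neither included the strictly inducible HSP70 gene HSPA6, whose highest library value was 0.049 FPKM, and 5 of the 8 HSPB genes. The highest value in any library among these 18 was 1.04 FPKM, in CCT6B, a testis form of CCT6A.

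With LncND siRNA about as many members rose as fell. On the log2(FPKM + 1) scale the largest increases were those of the J-domain genes DNAJB5 and DNAJC1 and of the small heat shock gene HSPB8, and the largest decreases those of HSPA2, BAG3 and HSPA1A. In all, 20 members rose, 18 fell and 24 were not called, a share of 61.3% called against 66.9% of the 12601 genes tested. By direction, 32.3% of the members and 36.6% of all genes rose, and 29% and 30.3% fell. Within the families, 47.1% of the 34 tested J-domain genes rose and 17.6% fell, 2 of the 9 HSP70 genes rose and 4 fell, and of the 10 chaperonin genes 3 fell (30%, near the share of all genes). No difference between families was tested. The treated libraries lay wholly above the controls for 27 members and wholly below them for 19, where 70.9% of all genes had groups that did not overlap. The median effect of the tested members was 0.02, beside 0.02 over all genes, and it turned to below 0 with a filter at 5 FPKM (-0.0073), median-ratio scaling (-0.0042), quantile normalization (-0.0029) and without LncND siRNA replicate 1 (-0.0021). Changes of at least 1.5-fold on this scale were few: DNAJB5 and HSPB8 rose and HSPA2 fell by that much, against 8.28% and 4.06% of all genes in the 2 directions. HSPB8 passed the filter only through its LncND siRNA libraries (control mean 0.779 FPKM), so that its place in these counts was not independent of its rise.

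With the miR-143-3p mimic the balance lay on the lower side. Of 63 tested members 33 fell, 8 rose and 22 were not called, and the members that fell came from each family and from the regulators. Of the 3 tested DNAJA genes 2 rose and only DNAJA3 fell, a call lost with both scalings. Called members made up 65.1%, against 63.3% of 12558 genes, with 52.4% of members and 38.6% of all genes lower, and 12.7% and 24.6% higher. Both mimic libraries lay below both controls for 42 members and above them for 12, where 81.9% of all genes had groups that did not overlap. The median effect was -0.17 over the members and -0.06 over all genes. The split was 12 higher and 26 lower with median-ratio scaling, where 31% of all genes were higher and 32.4% lower, and 13 higher and 26 lower with quantile normalization, where 33% and 30.7% of all genes were. At least 1.5-fold lower on the log2(FPKM + 1) scale were HSPA4L, HSPA2, DNAJB4, DNAJC22, HSPB8 and HSPE1, where 9.13% of all genes were. By the ratio of means DNAJC21 (0.629) fell further than HSPE1 (0.663), but its effect of -0.575 did not reach that cut. DNAJC22 passed the filter only through its control libraries (mimic mean 0.598 FPKM), so that its place in these counts was not independent of its fall. The highest effect of the mimic on a member was 0.38, on DNAJC4, short of 1.5-fold, which 3.98% of all genes passed on the higher side.

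**Figure D1:**
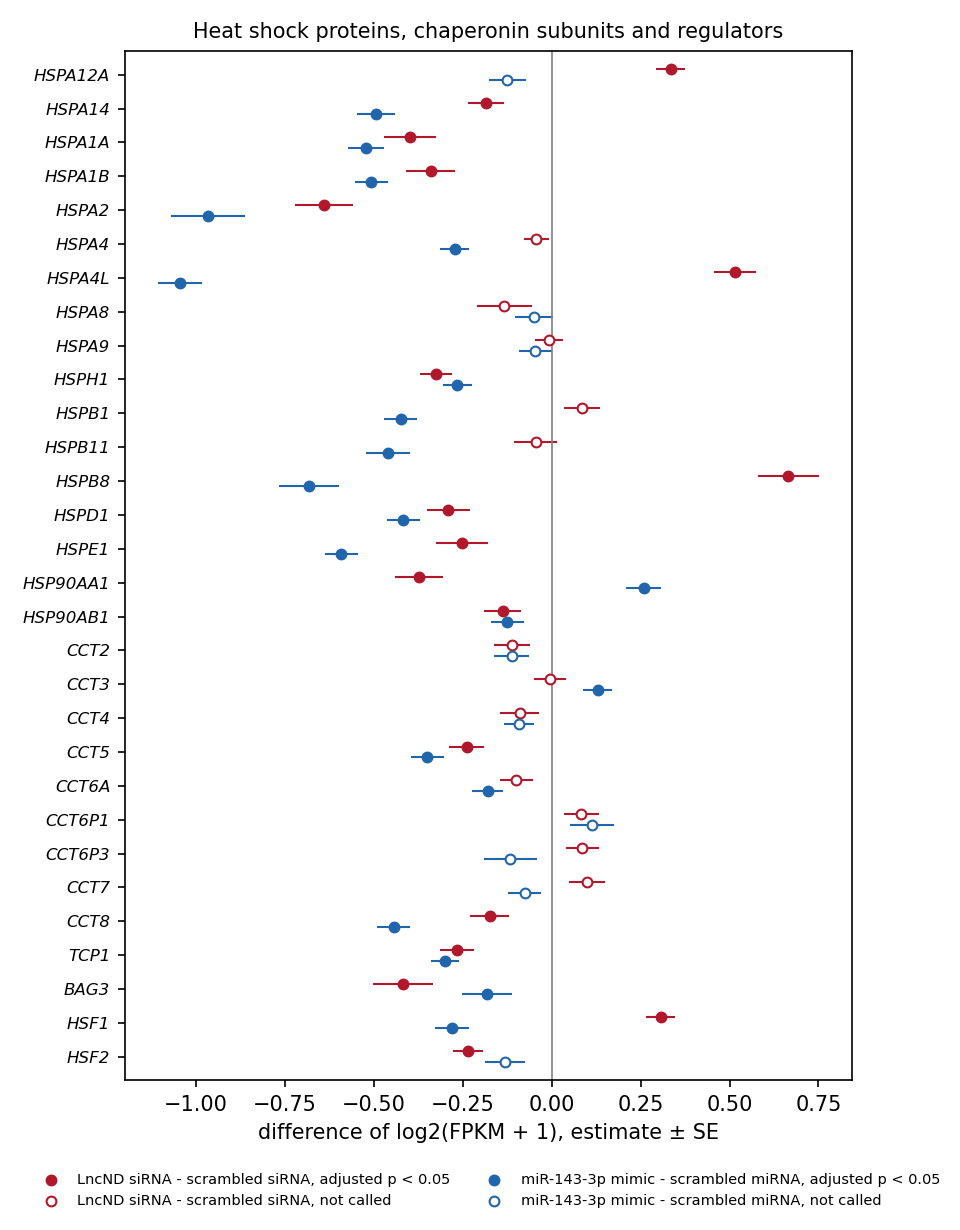
Effects of LncND siRNA (red, 3 against 3 libraries) and of the miR-143-3p mimic (blue, 2 against 2), as the difference of log2(FPKM + 1). Bars are 1 SE and filled points mark adjusted p under 0.05 (limma). Shown are the heat shock protein, chaperonin and regulator genes tested in both comparisons and the 2 HSP90 genes. The pseudogenes CCT6P1 and CCT6P3 are included, and HSPA1L, tested only with the mimic, is not. HSPA4L, HSPB8 and HSF1 lie to the right with LncND siRNA and to the left with the mimic, while HSPA1A, HSPA2, HSPD1, HSPE1 and TCP1 lie to the left with both.

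Among the HSP70 genes, the abundant constitutive form did not pass the test in either comparison while the less abundant stress-inducible copies fell in both. HSPA8 (chr11:122928199-122932901 in hg19), the constitutive HSP70 that also strips clathrin from vesicles, had the highest FPKM of all members in both control groups, 842 ± 45.7 with scrambled siRNA and 925 ± 18.6 with scrambled miRNA. Its 3 LncND siRNA libraries held 843, 761 and 703 FPKM and overlapped the controls at 892, 830 and 803. Its effect was -0.13 ± 0.077 (limma adjusted p = 0.151), and it was called lower without LncND siRNA replicate 1 (adjusted p = 0.00904) and with quantile normalization (adjusted p = 0.0284). With the mimic HSPA8 was 865 and 924 FPKM against 938 and 912 (-0.05 ± 0.053, adjusted p = 0.446), and was called lower with quantile normalization (-0.14, adjusted p = 0.00471). HSPA8 made up 18.6% to 21.6% of the summed FPKM of the members in every library.

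HSPA1A and HSPA1B are near-identical neighbouring genes of the major stress-inducible HSP70, so reads may be split between them and their values are uncertain one by one. HSPA1A (chr6:31783290-31785719) was 21.0, 20.3 and 17.5 FPKM with scrambled siRNA and 15.8, 14.8 and 13.3 with LncND siRNA. It was 35.8 and 38.6 FPKM with scrambled miRNA and 25.1 and 26.2 with the mimic. All treated libraries lay below all controls of their table. The effects were -0.40 ± 0.073 (adjusted p = 0.000795) and -0.52 ± 0.051 (adjusted p = 1.95e-05) and did not differ beyond error (difference 0.12, 95% interval -0.11 to 0.35). HSPA1B followed with -0.34 ± 0.068 and -0.51 ± 0.046. The sum of both copies, which does not depend on how reads were split, was 33.0 to 39.5 FPKM with scrambled siRNA and 25.6 to 30.1 with LncND siRNA, and 72.0 to 75.3 with scrambled miRNA and 49.8 to 52.1 with the mimic. The control levels of the 2 tables differ, and since the tables were scaled separately no comparison is made of them.

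HSPA2 (chr14:65007185-65009954), an HSP70 best known from male germ cells, was the member that fell furthest with LncND siRNA. It was 4.09, 4.09 and 4.53 FPKM in the controls and 2.82, 2.28 and 2.02 with LncND siRNA (-0.64 ± 0.082, adjusted p = 6.9e-05), and 6.51 and 6.27 against 3.27 and 2.35 with the mimic (-0.97 ± 0.10, adjusted p = 3.59e-05). HSPA14, which forms the ribosome-associated chaperone pair with DNAJC2, fell from 12.6 ± 0.216 to 11 ± 0.804 FPKM (-0.18 ± 0.050) and from 16.5 ± 0.669 to 11.5 ± 0.0706 (-0.49 ± 0.053). The 2 effects on HSPA14 differed (adjusted p = 0.00342). HSPA12A, a distant relative found in brain, rose with LncND siRNA from 9.58 ± 0.297 to 12.3 ± 0.346 FPKM (0.34 ± 0.041) and was -0.12 ± 0.052 with the mimic (adjusted p = 0.0623). HSPA9, the mitochondrial HSP70, was called in neither comparison (-0.01 ± 0.039 and -0.05 ± 0.047), with 95% intervals from -0.10 to 0.08 and from -0.15 to 0.06. HSPA1L, tested only with the mimic, was 1.12 and 1.5 FPKM in the controls and 1.1 and 0.812 with the mimic and was not called. It passed the filter only through the controls, and it was called lower without mimic replicate 1 or scrambled miRNA replicate 2 (adjusted p as low as 0.0292).

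The nucleotide exchange factors of the HSP110 group moved in different directions. HSPA4L (chr4:128703452-128754526) was 10.7, 10.2 and 10.7 FPKM with scrambled siRNA and 13.9, 16.7 and 15.9 with LncND siRNA. In the miRNA table it was 20.6 and 21.9 FPKM in the controls and 9.28 and 10.3 with the mimic. All LncND siRNA libraries were higher than their controls and both mimic libraries were lower than theirs. The effects were 0.52 ± 0.060 (adjusted p = 3.46e-05) and -1.04 ± 0.062 (adjusted p = 8.03e-07), and they differed by 1.56 (95% interval 1.35 to 1.77, adjusted p = 2.2e-08). HSPH1, the abundant member of the group, fell in both, from 81.0 ± 2.21 to 64.5 ± 3.43 FPKM (-0.32 ± 0.046) and from 92.8 ± 0.999 to 77.1 ± 1.18 (-0.26 ± 0.041). HSPA4 was 64.3 ± 0.707 and 62.4 ± 1.25 FPKM without a call with LncND siRNA, where quantile normalization called it lower (adjusted p = 0.0155), and fell from 79.3 ± 1.03 to 65.5 ± 0.511 with the mimic (-0.27 ± 0.041).

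**Figure D2:**
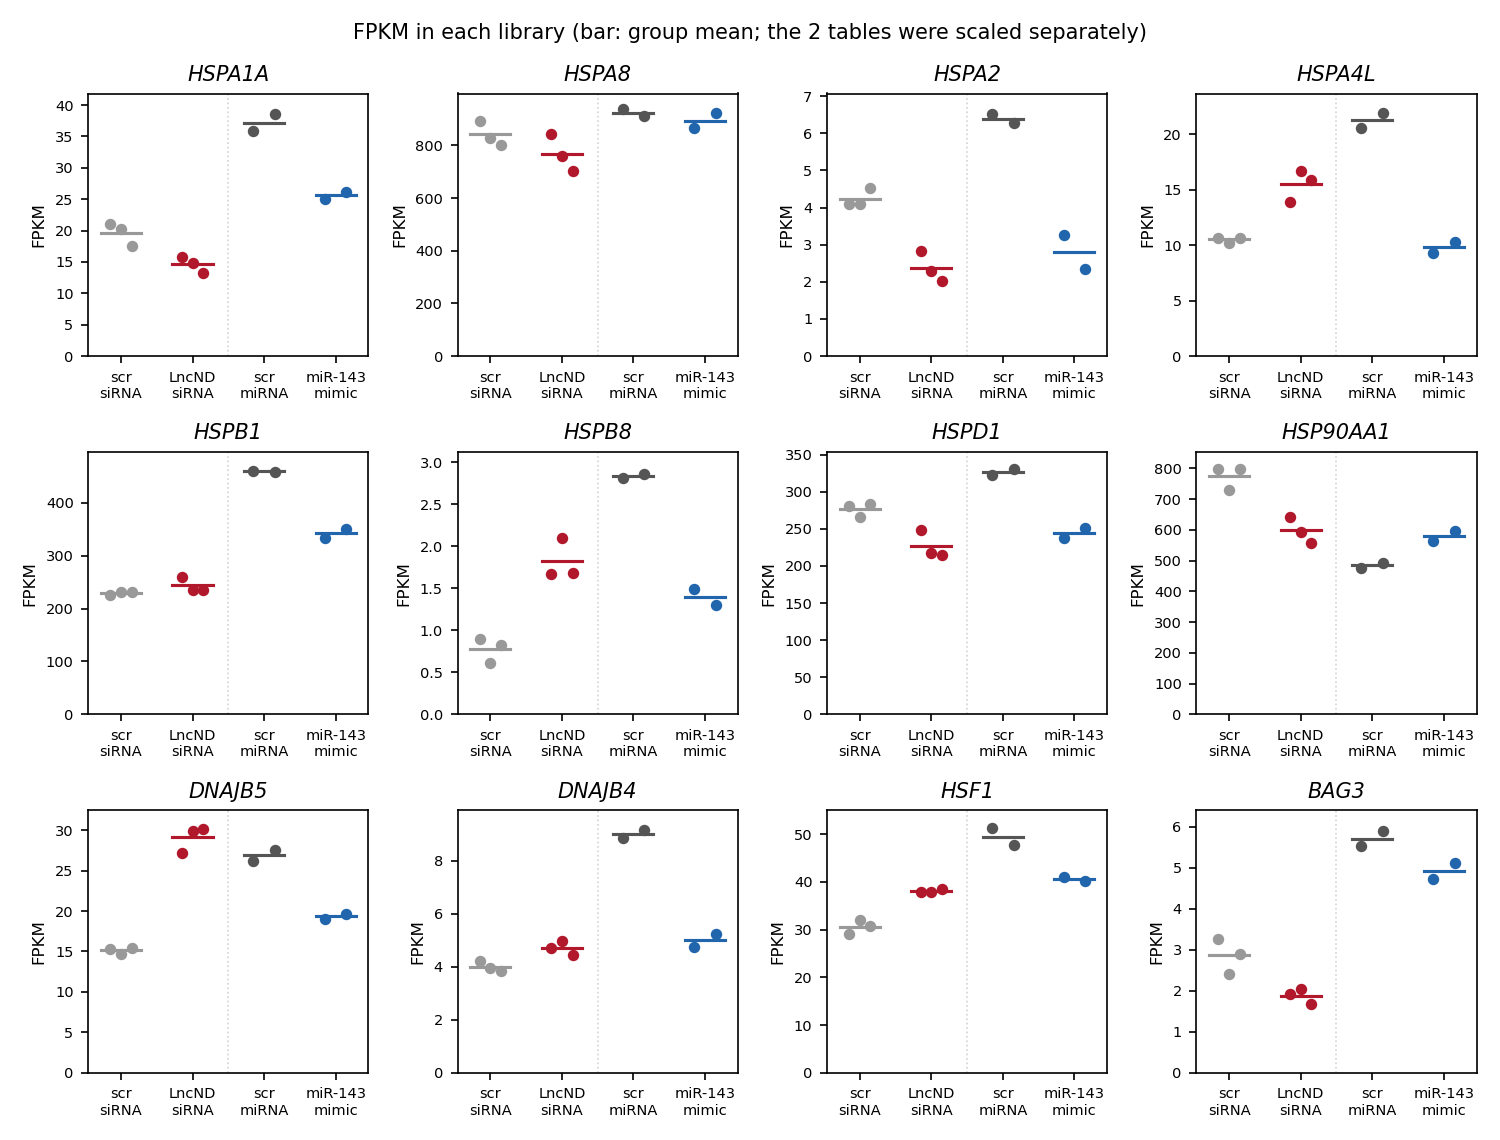
FPKM of 12 genes in each of the 10 libraries, on axes that start at 0, with a bar at each group mean and a dotted line between the separately scaled tables. HSPA1A and HSPA2 are lower in both treated groups, HSPA4L, HSPB8 and DNAJB5 are higher with LncND siRNA and lower with the mimic, and HSPA8 overlaps its controls.

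J-domain genes were the largest family, with 34 tested. With LncND siRNA 16 rose (47.1%, against 36.6% of all genes) and 6 fell (17.6% against 30.3%), with a median effect of 0.09 beside 0.02 over all genes. With the mimic 7 rose (20.6% against 24.6%) and 15 fell (44.1% against 38.6%), with a median of -0.08 beside -0.06, so that the mimic's shares lay near those of all genes. Of the 7 tested DNAJB genes 5 rose and 1 fell with LncND siRNA. The one that fell, DNAJB14 (limma adjusted p = 0.0492), lost its call in 6 of 12 alternatives, left-out libraries among them (adjusted p up to 0.136). With the mimic 4 of the 7 fell and 3 were not called, while 2 rose and 2 fell with median-ratio scaling or quantile normalization. For the 24 DNAJC genes the counts were 10 higher and 5 lower with LncND siRNA and 5 higher and 10 lower with the mimic, and the mimic's median moved from -0.08 to 0.0092 with quantile normalization.

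DNAJB5 (chr9:34989637-34998430), a close relative of the main HSP70 partner DNAJB1, had the largest effect of LncND siRNA among the tested members on the log2(FPKM + 1) scale, while by the ratio of means HSPB8 was higher (2.34). Its controls were 15.3, 14.7 and 15.4 FPKM and its LncND siRNA libraries 27.2, 29.9 and 30.2, a ratio of means of 1.92 (0.90 ± 0.045, adjusted p = 1.33e-07). With the mimic it was 19 and 19.6 FPKM against 26.2 and 27.6 (-0.46 ± 0.049, adjusted p = 3.41e-05), and the 2 effects differed by 1.35 (adjusted p = 4.31e-09). DNAJB4, another relative of DNAJB1, was 4.21, 3.96 and 3.82 FPKM with scrambled siRNA and 4.69, 4.98 and 4.46 with LncND siRNA (0.19 ± 0.053, adjusted p = 0.00891). Quantile normalization ended that call (adjusted p = 0.0746). With the mimic DNAJB4 dropped from 8.84 and 9.16 FPKM to 4.76 and 5.23, to 0.555 of the control mean (-0.74 ± 0.066, adjusted p = 1.05e-05). DNAJB1 itself, a classical heat-inducible gene, was 34.2 ± 1.06 and 35.5 ± 2.08 FPKM without a call, and fell slightly with the mimic from 54.4 ± 1.62 to 48.6 ± 0.499 (-0.16 ± 0.044, adjusted p = 0.00948). That call was lost with both scalings and without scrambled miRNA replicate 2, at adjusted p of up to 0.286.

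DNAJC5, the cysteine string protein of synaptic vesicles, was 15.3, 15.9 and 15.2 FPKM in the controls and 21.3, 21.8 and 21.6 with LncND siRNA (0.46 ± 0.036, adjusted p = 2.01e-06). With the mimic it was 18.9 ± 0.831 against 16.6 ± 0.421 FPKM (0.17 ± 0.053, adjusted p = 0.0165), a call lost without scrambled miRNA replicate 2 or mimic replicate 1 (adjusted p up to 0.106). DNAJB2, a neuronal J protein that delivers clients to the proteasome, rose from 20.04 ± 0.478 to 26.4 ± 0.912 FPKM with LncND siRNA (0.38 ± 0.039) and fell with the mimic (-0.17 ± 0.056, adjusted p = 0.0232). The mimic's call on DNAJB2 was lost in 5 of 10 alternatives, both scalings and 2 left-out libraries among them, at adjusted p of up to 0.193. DNAJC13, a protein of endosomes, rose in both (0.29 ± 0.049 and 0.25 ± 0.049). DNAJC6, the auxilin of clathrin uncoating, was 12.5 ± 0.141 and 13.3 ± 0.346 FPKM with no call, except without LncND siRNA replicate 1 (adjusted p = 0.0323), and fell with the mimic from 18.3 ± 0.467 to 15.3 ± 0.332 (-0.24 ± 0.050).

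DNAJC1, in the membrane of the endoplasmic reticulum, was 7.42, 7.34 and 8.12 FPKM with scrambled siRNA and 11.5, 12 and 12 with LncND siRNA (0.57 ± 0.047, adjusted p = 2.72e-06). It was 16.2 and 16.9 FPKM with scrambled miRNA and 12.8 and 11.5 with the mimic (-0.42 ± 0.062, adjusted p = 0.000262). Neither pair of groups overlapped, and the effects differed by 0.99 (adjusted p = 2.49e-07). DNAJC4 rose in both comparisons, from 17.4 ± 0.973 to 25.3 ± 0.182 FPKM (0.52 ± 0.044) and from 19.6 ± 0.110 to 25.8 ± 0.848 (0.38 ± 0.048). DNAJC28 rose with LncND siRNA from 1.27 ± 0.0367 to 2.25 ± 0.0373 FPKM (0.52 ± 0.053), and its mimic groups overlapped (adjusted p = 0.107, and as low as 0.0195 with a call when mimic replicate 1 or scrambled miRNA replicate 2 was left out or in 2 other settings). Smaller increases with LncND siRNA were measured for DNAJC24, which acts in the diphthamide modification of an elongation factor (0.32 ± 0.051), DNAJC18 (0.30 ± 0.043), DNAJB12 (0.30 ± 0.049) and DNAJC27, which carries a small GTPase domain (0.29 ± 0.056).

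Fewer J-domain genes fell with LncND siRNA. DNAJC12, a co-chaperone of the aromatic amino acid hydroxylases, fell from 22.7 ± 1.47 to 19.2 ± 1.21 FPKM (-0.23 ± 0.056, adjusted p = 0.00398) and was -0.05 ± 0.045 with the mimic. DNAJC21, a factor of ribosome assembly, fell in both, from 6 ± 0.216 to 5.03 ± 0.228 FPKM (-0.22 ± 0.048) and from 7.75 ± 0.131 to 4.87 ± 0.0767 (-0.58 ± 0.062), and the fall was larger with the mimic (adjusted p of the difference = 0.000859). DNAJC22 was 1.62, 1.87 and 1.78 FPKM against 1.34, 1.24 and 1.45 with LncND siRNA, and 1.47 and 1.70 against 0.587 and 0.609 with the mimic, so that the mimic libraries held 0.378 of the control mean (-0.69 ± 0.095). Its mimic mean of 0.598 FPKM lay under the filter, which it passed through the controls at 1.58. At such levels the log2(FPKM + 1) scale understates the change.

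Among the mitochondrial J-domain genes, DNAJC19 and DNAJC15, which act in protein import at the inner membrane, fell with the mimic. DNAJC19 went from 18.5 ± 0.666 to 13.8 ± 1.01 FPKM (-0.40 ± 0.060, adjusted p = 0.000322) and DNAJC15 from 7.68 ± 0.368 to 6.05 ± 0.0553 (-0.30 ± 0.063, adjusted p = 0.00225). Their LncND siRNA effects were -0.07 ± 0.052 and 0.09 ± 0.045, and the difference between the comparisons was called for both (adjusted p = 0.0046 and 0.000461). Without LncND siRNA replicate 1 DNAJC19 was called lower with that siRNA too (adjusted p = 0.043). DNAJA3 (-0.17 ± 0.054) and DNAJC11 (-0.15 ± 0.047) fell by less with the mimic, each losing its call in 5 of 10 alternatives, left-out libraries among them, at adjusted p of up to 0.12 and 0.201. DNAJC30 was called in neither comparison, although quantile normalization called it lower with LncND siRNA (adjusted p = 0.0224). DNAJC14, a J protein of the endoplasmic reticulum membrane, also fell with the mimic (-0.25 ± 0.054), from 28 ± 1.22 to 23.4 ± 1.24 FPKM.

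DNAJA1 and DNAJC17 were the 2 members whose effect was lower with LncND siRNA than with the mimic in the test of the difference, against 28 with the reverse, where over all genes it was lower in 22% and higher in 38.1%. DNAJA1, the most abundant J-domain gene, was 252, 238 and 239 FPKM against 241, 228 and 209 with LncND siRNA and was not called (-0.11 ± 0.056), except without LncND siRNA replicate 1 (-0.15, adjusted p = 0.0134) and with quantile normalization. With the mimic it rose from 183 and 181 to 215 and 235 FPKM (0.30 ± 0.050, adjusted p = 0.000589). DNAJC17, an RNA-binding J protein, fell with LncND siRNA from 9.85 ± 0.269 to 8.84 ± 0.444 FPKM (-0.14 ± 0.046, adjusted p = 0.0193) and rose with the mimic from 7.03 ± 0.0795 to 8.99 ± 0.950 (0.31 ± 0.073, adjusted p = 0.00419). The fall was not called without LncND siRNA replicate 2, scrambled siRNA replicate 2 or scrambled siRNA replicate 3 (adjusted p up to 0.0836). Rows of other genes overlap DNAJC17, namely C15orf62 over 2490 bp and ZFYVE19 over 403 bp.

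**Figure D3:**
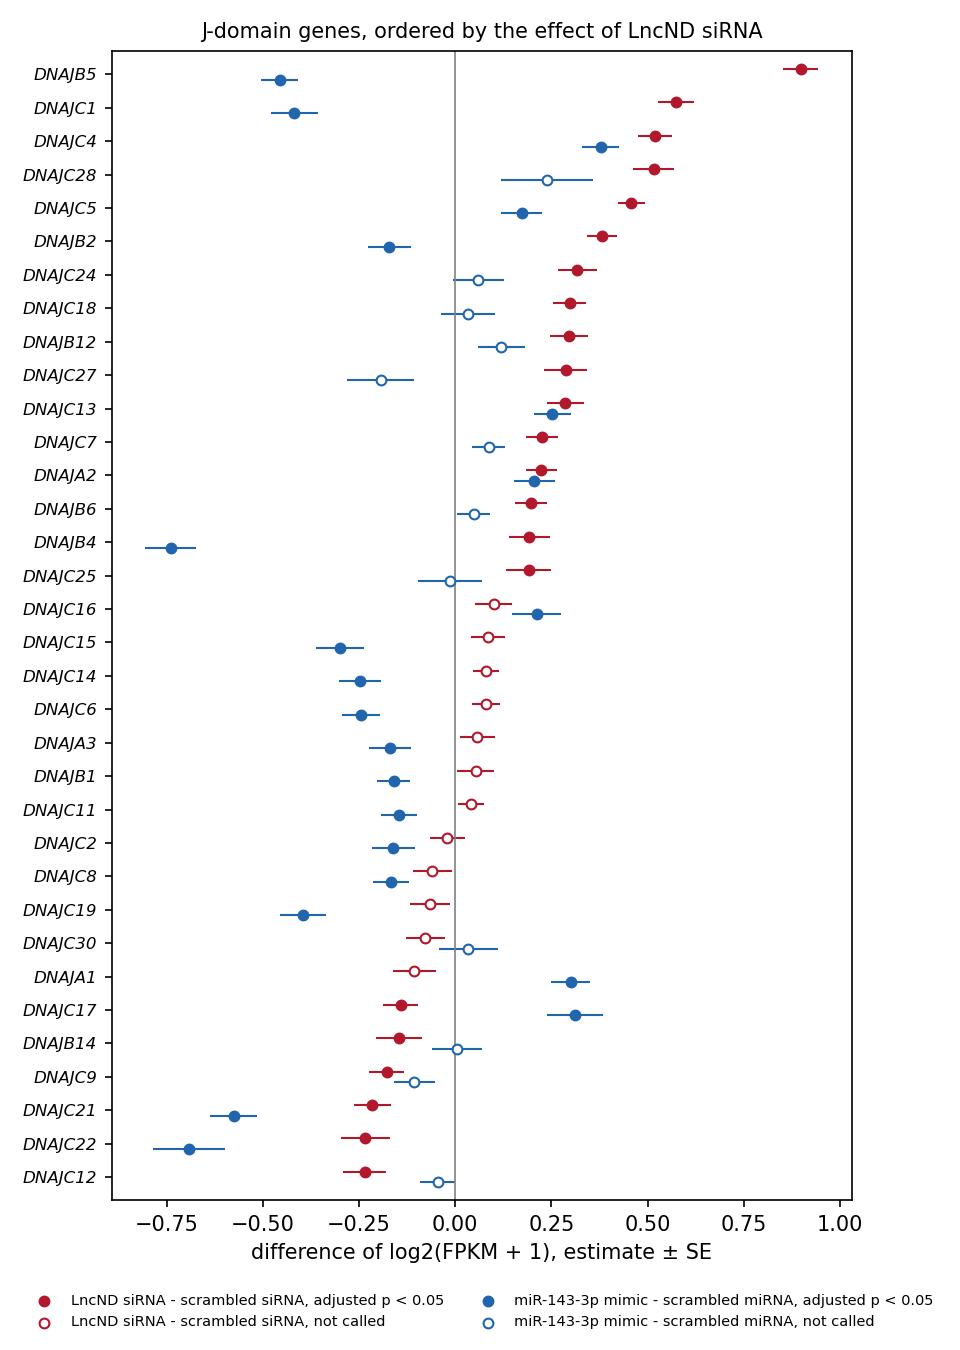
Effects on the 34 tested J-domain genes, ordered by the effect of LncND siRNA, as the difference of log2(FPKM + 1) with bars of 1 SE, red for LncND siRNA and blue for the mimic and filled where called. DNAJB5 and DNAJC1 are among the highest of the red points and lie below 0 in blue, and DNAJC22 and DNAJC21 lie below 0 in both colours.

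Of the HSPB genes 3 were tested, the small heat shock protein genes HSPB8 and HSPB1 and the differently acting HSPB11. HSPB8 (chr12:119616594-119632551), which works with BAG3 to send clients to autophagy, was 0.901, 0.611 and 0.825 FPKM with scrambled siRNA and 1.68, 2.11 and 1.68 with LncND siRNA, a ratio of means of 2.34 (0.67 ± 0.085, adjusted p = 6.9e-05). Its control mean of 0.779 FPKM lay under the filter, which it passed through the LncND siRNA libraries at 1.82. With the mimic it was 1.49 and 1.30 FPKM against 2.81 and 2.87, a ratio of 0.492 (-0.68 ± 0.084, adjusted p = 7.9e-05). Neither pair of groups overlapped, and the effects differed by 1.35 (adjusted p = 1e-06). HSPB1 (HSP27), the abundant form, was 226, 231 and 232 FPKM against 260, 236 and 236 with LncND siRNA, which did not pass the test (0.08 ± 0.050, adjusted p = 0.158) although the groups did not overlap, and quantile normalization called it higher (adjusted p = 0.024). With the mimic HSPB1 fell from 461 and 458 to 334 and 351 FPKM (-0.42 ± 0.046, adjusted p = 3.62e-05), and the difference between the comparisons was called (adjusted p = 4.93e-05). HSPB11, the intraflagellar transport gene, was 44.9 ± 4.18 and 43.4 ± 0.627 FPKM with no call, except without scrambled siRNA replicate 2 (adjusted p = 0.0315), and fell with the mimic from 54.2 ± 3.77 to 39.2 ± 2.80 (-0.46 ± 0.062).

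The mitochondrial folding chamber was lower in both comparisons. HSPD1 (HSP60, chr2:198351307-198364998) was 281, 265 and 283 FPKM against 248, 217 and 214 with LncND siRNA (-0.29 ± 0.061, adjusted p = 0.00193) and 322 and 331 against 238 and 251 with the mimic (-0.42 ± 0.046, adjusted p = 4.02e-05). HSPE1 (HSP10, chr2:198364720-198368187), its lid, was 157, 150 and 163 FPKM against 150, 123 and 123 with LncND siRNA, where the highest treated library was level with the lowest control (-0.25 ± 0.074, adjusted p = 0.012). That call was lost when no filter on low values was used (adjusted p = 0.0524). With the mimic HSPE1 dropped from 199 and 197 to 127 and 136 FPKM (-0.59 ± 0.046, adjusted p = 4.21e-06), more than with LncND siRNA (adjusted p of the difference = 0.0135). The ratio of HSPD1 to HSPE1 was 1.73 to 1.80 with scrambled siRNA and 1.66 to 1.77 with LncND siRNA, and 1.62 and 1.68 with scrambled miRNA against 1.87 and 1.85 with the mimic. The 2 genes overlap by 278 bp at their starts and a read-through gene, HSPE1-MOB4, covers HSPE1, and reads in shared stretches cannot be assigned with certainty.

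The 8 genes of the cytosolic CCT ring, in which each subunit has 1 place, gave mixed calls. With LncND siRNA TCP1, CCT5 and CCT8 fell (37.5%, against 30.3% of all genes) and CCT2, CCT3, CCT4, CCT6A and CCT7 were not called. The median effect was -0.10. With the mimic TCP1, CCT5, CCT6A and CCT8 fell (50%, against 38.6% of all genes) and CCT3 rose (12.5% against 24.6%). The median was -0.15 and turned to 0.02 with quantile normalization. The highest and lowest subunit of a library were 2.72 to 2.78 times apart per length with scrambled siRNA and 2.81 to 3.01 with LncND siRNA, and 1.96 and 2.03 times apart with scrambled miRNA against 2.31 and 2.34 with the mimic. The treated libraries lay above their controls in both tables.

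CCT5 (chr5:10250281-10266501) was 142, 138 and 142 FPKM against 128, 117 and 113 with LncND siRNA (-0.24 ± 0.050, adjusted p = 0.00179) and 135 and 133 against 101 and 109 with the mimic (-0.35 ± 0.046, adjusted p = 0.000121). TCP1, the founding subunit, was 127, 125 and 127 FPKM against 112, 104 and 99.1 (-0.27 ± 0.048, adjusted p = 0.000768) and 153 and 155 against 124 and 126 (-0.30 ± 0.040, adjusted p = 0.000144). Every treated library of both genes lay below its controls. ACAT2 overlaps TCP1 by 558 bp, and TSACC overlaps CCT3 by 1102 bp. CCT8 fell from 144 ± 5.04 to 128 ± 8.98 FPKM with LncND siRNA (-0.17 ± 0.054, adjusted p = 0.0162) and more with the mimic, from 163 ± 2.98 to 120 ± 5.57 (-0.44 ± 0.046, adjusted p of the difference = 0.0103). The LncND siRNA call on CCT8 was lost when scrambled siRNA replicate 1 or 3 or LncND siRNA replicate 2 or 3 was left out (adjusted p up to 0.0669).

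The effects on the other ring subunits were smaller, and the number called lower with LncND siRNA depended on the setting. Without LncND siRNA replicate 1, CCT2 (adjusted p = 0.00327), CCT4 (adjusted p = 0.00185) and CCT6A (adjusted p = 0.00394) were called lower as well, so that 6 of the 8 ring genes were. Over all genes 3961 of 12570 were lower in that setting. The same 3 genes were added with quantile normalization (adjusted p = 0.00464, 0.0288 and 0.00154), again making 6, and CCT2 and CCT6A with median-ratio scaling (adjusted p = 0.0263 and 0.0265), making 5. Of all genes 37% were lower with quantile normalization and 32.8% with median-ratio scaling. With all libraries their effects of LncND siRNA were -0.11 ± 0.050, -0.09 ± 0.054 and -0.10 ± 0.046. CCT6A fell with the mimic from 184 ± 0.131 to 162 ± 5.37 FPKM (-0.18 ± 0.043, adjusted p = 0.00481) and was at 0.0019 with quantile normalization, where the call was lost. CCT3 was 215 and 215 FPKM against 233 and 238 with the mimic (0.13 ± 0.041, adjusted p = 0.0205), a call lost without mimic replicate 2 or either scrambled miRNA library (adjusted p up to 0.108). CCT7 was called in neither (0.10 ± 0.050 and -0.08 ± 0.047), although quantile normalization called it higher with LncND siRNA (adjusted p = 0.022). CCT2 was -0.11 ± 0.049 with the mimic and CCT4 -0.09 ± 0.042, both not called, CCT2 only until mimic replicate 2 was left out (adjusted p = 0.00978). The pseudogenes CCT6P1 and CCT6P3, whose reads may be shared with CCT6A, stood at 7.73 to 12.3 FPKM and were not called. CCT6P3 was called higher without LncND siRNA replicate 3 (adjusted p = 0.0439) and lower without mimic replicate 1 (adjusted p = 0.0204), and CCT6P1 was called higher with the mimic under both scalings (adjusted p = 0.0343 and 0.0204).

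**Figure D4:**
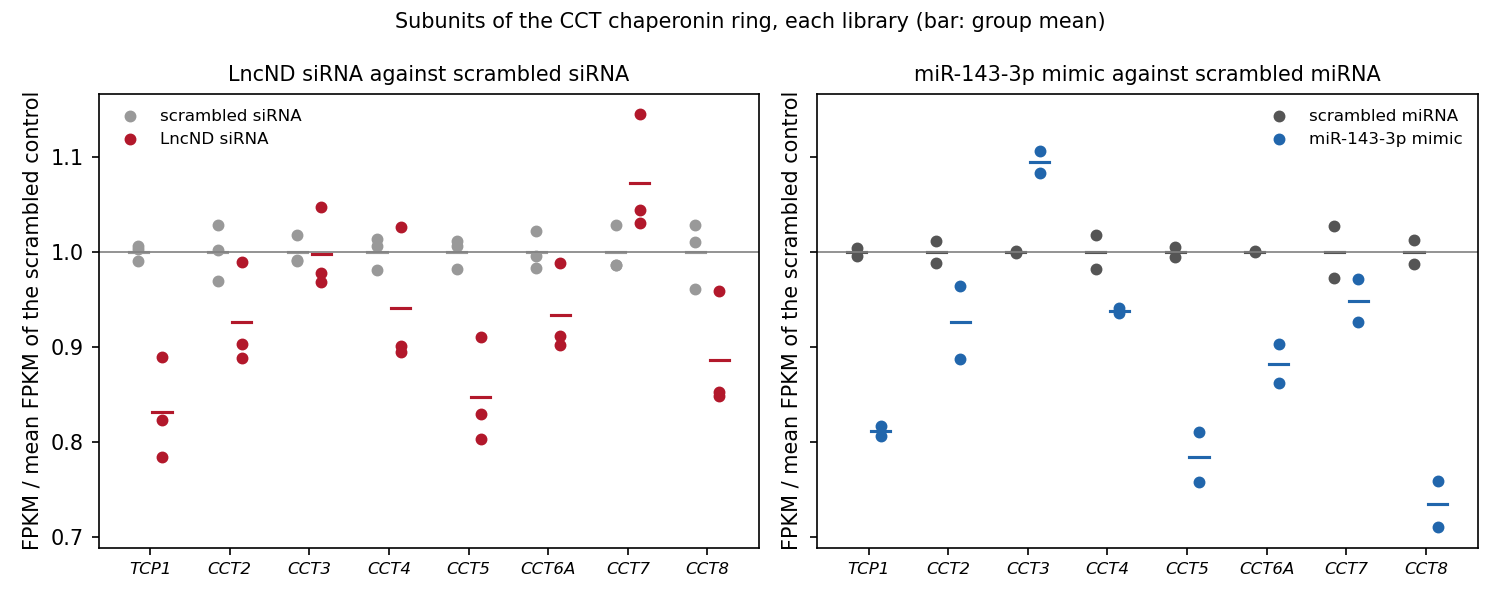
FPKM of each CCT ring subunit divided by the mean of its scrambled control, for each library, with bars at group means. TCP1, CCT5 and CCT8 lie below 1 in every treated library of both comparisons, while CCT3 and CCT7 lie near or above 1 with LncND siRNA.

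The regulators differed in direction. HSF1 (chr8:145515269-145538385) was 29.2, 32.0 and 30.7 FPKM with scrambled siRNA and 37.9, 37.9 and 38.4 with LncND siRNA (0.31 ± 0.041, adjusted p = 8.46e-05), and 51.3 and 47.7 against 41.0 and 40.2 with the mimic (-0.28 ± 0.048, adjusted p = 0.000707). The groups did not overlap in either table, and the effects differed by 0.59 (adjusted p = 4.85e-06). HSF2, a second factor of the family, fell with LncND siRNA from 18.0 ± 0.608 to 15.1 ± 0.537 FPKM (-0.23 ± 0.042, adjusted p = 0.000647) and was -0.13 ± 0.056 with the mimic (adjusted p = 0.0647). HSF2 was called lower with the mimic without mimic replicate 2 (adjusted p = 0.0353) or scrambled miRNA replicate 1 (adjusted p = 0.0474). BAG3, the exchange factor that joins HSP70 to HSPB8, was 3.26, 2.42 and 2.90 FPKM against 1.92, 2.04 and 1.67 with LncND siRNA (-0.42 ± 0.084, adjusted p = 0.00146). With the mimic it was 5.52 and 5.89 against 4.72 and 5.10 FPKM (-0.18 ± 0.069, adjusted p = 0.0433), and that call was lost in 6 of 10 alternatives, leaving out either scrambled miRNA library or mimic replicate 1 among them, at adjusted p of up to 0.226.

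Of the members tested in both comparisons, 30 of 62 (48.4%) had effects that differed, against 60.2% of 12327 genes, and in 28 of the 30 the effect of LncND siRNA was the higher one. Over all genes the effect of LncND siRNA was the higher one in 38.1% and the lower one in 22%, and the medians of all genes were 0.02 and -0.06. Of the 62 members it was the higher one in 28 and the lower one in 2, a more uneven split than that of all genes. Whether the members differ from all genes in this was not tested, and nothing particular to them is read from it. The 2 comparisons share no control library. HSPA4L, HSPB8, HSF1, DNAJB2, DNAJB4, DNAJB5 and DNAJC1 rose with LncND siRNA and fell with the mimic, 7 members (11.3%) where 10.6% of all genes did so, and 1 member, DNAJC17, did the reverse (4.66% of all genes). Lower in both were 13 members (21%, against 16.4% of all genes), namely HSPA1A, HSPA1B, HSPA2, HSPA14, HSPH1, HSPD1, HSPE1, TCP1, CCT5, CCT8, BAG3, DNAJC21 and DNAJC22. Higher in both were DNAJA2, DNAJC4, DNAJC5 and DNAJC13 (6.5%, against 12.6% of all genes). HSPB8 with LncND siRNA and DNAJC22 with the mimic passed the filter only through the group where they were high. Their place in these shares was thus not independent of their change. As given above, some calls were lost in alternatives, among them DNAJB2, BAG3 and DNAJC5 with the mimic and DNAJB4, HSPE1 and CCT8 with LncND siRNA. DNAJA2, a class A partner of HSP70, gained 0.22 ± 0.042 and 0.21 ± 0.053, and the second call was lost without scrambled miRNA replicate 1 (adjusted p = 0.0806).

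With the mimic, the members with a seed match in the 3′ UTR were compared with those without. Of the 11 with a match 8 fell (72.7%) and 3 were not called, with a median of -0.18, and of the 50 without one 25 fell (50%) and 8 rose, with a median of -0.17. Over all genes 46.3% of 2780 with a match and 36.9% of 8418 without one fell, with medians of -0.12 and -0.05. The difference between the 2 groups of members was not tested. Thus 25 members fell without holding these letters in the longest annotated UTR. Not called among the 11 were HSF2, HSPA12A and DNAJC18. The 8 that fell include DNAJC22, which passed the filter only through its controls. They also include BAG3, DNAJC11 and DNAJB1, whose calls were lost with both scalings. Among the 25 without a match, the calls on DNAJA3, DNAJB2, DNAJC2 and DNAJC8 were lost with both scalings too. For the heat shock letters, which stood in 13.7% of all promoters, 3 of 15 matched members that fell with LncND siRNA held either form (20%). So did 2 of 16 that rose (12.5%) and 6 of 20 not called (30%). With the mimic the counts were 6 of 26 that fell (23.1%), 1 of 8 that rose (12.5%) and 5 of 18 not called (27.8%). No difference between these groups was tested.

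The HSP90 system, which receives clients from HSP70, was read from a list of 26 genes. The counts of this and the following lists stand beside the shares over all genes, which were 36.6% higher and 30.3% lower for LncND siRNA and, for the mimic, 24.6% higher and 38.6% lower. HSP90AA1, the inducible form, fell with LncND siRNA and rose with the mimic: it was 797, 730 and 797 FPKM against 643, 595 and 559 (-0.37 ± 0.068, adjusted p = 0.000757) and 478 and 493 against 565 and 597 (0.26 ± 0.049, adjusted p = 0.00123), with a called difference (adjusted p = 6.58e-05). HSP90AB1, the constitutive form, was called lower in both by a narrow margin (-0.14 ± 0.053, adjusted p = 0.0411, and -0.12 ± 0.046, adjusted p = 0.0389). These calls on HSP90AB1 were lost when any single library other than LncND siRNA replicate 1 was left out (adjusted p up to 0.136 with LncND siRNA and 0.174 with the mimic). Of the list 3 rose and 10 fell with LncND siRNA, with a median of -0.06, and 7 rose and 12 fell with the mimic, with a median of -0.11. PTGES3 (p23), which closes the HSP90 clamp, fell from 242 ± 3.13 to 129 ± 3.12 FPKM with the mimic (-0.90 ± 0.042, adjusted p = 2.12e-07), and CDC37L1 rose from 7.96 ± 0.597 to 14.8 ± 0.272 with LncND siRNA (0.82 ± 0.051).

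Cofactors of HSP70 and of the CCT ring were mixed. Of 16 HSP70 cofactors 4 rose and 3 fell with LncND siRNA, and 3 rose and 5 fell with the mimic. STUB1 (CHIP), the ubiquitin ligase of chaperone clients, rose from 33.7 ± 1.67 to 53.2 ± 2.24 FPKM with LncND siRNA (0.64 ± 0.047), and with the mimic BAG1 rose from 5.94 ± 0.377 to 10.3 ± 0.0482 (0.70 ± 0.063) while BAG2 fell from 15.1 ± 0.227 to 8.13 ± 0.427 (-0.82 ± 0.058). Of 15 prefoldins and tubulin or CCT cofactors 8 rose and 1 fell with LncND siRNA, and 5 rose and 6 fell with the mimic. PFDN6, a subunit of the prefoldin that hands actin and tubulin to CCT, rose with LncND siRNA from 102 ± 5.51 to 148 ± 8.69 FPKM (0.54 ± 0.055) while PDCL, a phosducin-like CCT cofactor, fell (-0.46 ± 0.052). VBP1, another prefoldin subunit, fell from 52.1 ± 1.64 to 29.6 ± 1.98 FPKM with the mimic (-0.80 ± 0.054).

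Further heat-inducible genes and regulators from a list of 16, of which 12 were tested, rose in 6 cases and fell in 2 with LncND siRNA, and with the mimic 7 fell and 5 were not called. CLU, the secreted chaperone clusterin, went from 4.21 ± 0.419 to 20.3 ± 1.03 FPKM with LncND siRNA (2.04 ± 0.062) and from 8.62 ± 0.788 to 3.75 ± 0.559 with the mimic (-1.02 ± 0.092). RGS2, a regulator of G protein signalling that also responds to heat, rose by 1.16 ± 0.041 and fell with the mimic (-1.07 ± 0.054). SERPINH1 (HSP47), the collagen chaperone and a heat-inducible gene, fell in both (-0.48 ± 0.051 and -0.48 ± 0.044), as did HMOX1 (-0.27 ± 0.078 and -0.84 ± 0.091). ATF3 rose (0.35 ± 0.057) and fell (-0.82 ± 0.063), and SQSTM1, the autophagy receptor, rose with LncND siRNA (0.56 ± 0.036) and was not called with the mimic (-0.04 ± 0.041), with a called difference (adjusted p = 6.68e-07). CRYAB, a small heat shock protein gene, stood at the lowest listed value of 0.001 FPKM in 9 of the 10 libraries. Of 10 genes of mitochondrial protein quality control 3 rose and 3 fell with LncND siRNA and 2 rose and 5 fell with the mimic.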

How the data were processed

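Expression of heat shock and chaperonin genes was measured by poly(A) RNA-seq in 10 libraries of SH-SY5Y cells, grouped by their labels. The authors deposited FPKM values (no other score) in 2 tables, 1 per kind of treatment, each of 25275 rows. TopHat, listed as version 1.0.0, Cufflinks and hg19 are named per the submitters' processing notes; for the annotation and the strand setting, each is not given in the sources used here. Rows off the assembled chromosomes (1304 in each table, 12 of them of members, all at 0.001 FPKM) were left out. Depth was estimated from the smallest steps between FPKM values of olfactory receptor genes; it is rough, for scrambled miRNA replicate 1 resting on 3 values, and entered no test.

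The deposited FPKM entered limma 3.58.1 (trended eBayes, R 4.3.3) as log2(FPKM + 1), each table alone, over genes averaging 1 FPKM or more (12601 and 12558), 2-sided, with Benjamini-Hochberg adjustment over all of them. Whether the 2 effects differ was tested in 1 fit of all libraries over 12327 genes, where the offset between tables cancels. The procedure was tested on simulated data. Named were all tested heat shock, CCT and regulator genes, both HSP90 genes, the 12 called J-domain genes and the 8 called genes of the related lists with the largest effects in each comparison; other genes named were chosen after their values were seen. The members and lists were chosen with earlier results of these data known. Alternatives were a pseudocount of 0.1, no filter or a filter at 5 FPKM, median-ratio scaling, quantile normalization, a replicate block, and leaving out each library.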

Additional observations from a re-analysis of the deposited data

How the results depend on the processing

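Counts of called members kept their size (within 1.5 times) under the alternatives, except that 13 members were called higher with the mimic under quantile normalization, against 8; with median-ratio scaling it was 12. Leaving out 1 library at a time gave 19 to 22 members higher and 15 to 23 lower with LncND siRNA, 6 to 7 higher and 28 to 34 lower with the mimic, and 26 to 34 with differing effects. With the mimic this leaves 1 library in an arm, which is then assumed to vary like the other groups. Of 38 calls with LncND siRNA 32 were made in all 12 alternatives in which the gene was tested, and of 41 with the mimic 29 in all 10. The only effect on a named gene that changed sign from a call was CCT6A with the mimic, 0.0019 under quantile normalization; the cause was not tested. Replicate numbers are shared by name only: same-numbered libraries deviated together at 0.07, 0.21 and -0.05 (siRNA) and 0.13 (miRNA, 2 pairs). With the replicate block 20 members rose and 17 fell with LncND siRNA, 9 rose and 36 fell with the mimic, and 33 had differing effects. The block called HSF2 (adjusted p = 0.0251), HSPA12A (0.0444) and DNAJC9 (0.0443) lower and DNAJC28 (0.0343) higher with the mimic, none of which was called without it. Members under 1 FPKM rest on few fragments at these depths and were left untested.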
